A study of Mus musculus with 6 samples.

Results

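The neurotrophin genes measured here are 7 genes of 53379 in the count table, chosen by name: the ligands Bdnf, Ntf3 and Ntf5, the Trk receptors Ntrk2 and Ntrk3, the p75 receptor Ngfr and the sorting receptor Sort1. They were read in bulk RNA sequencing of cerebral cortex from newborn mice (postnatal day 0), in 3 libraries heterozygous for Npas3 (Npas3+/-) and 3 wild-type (WT) libraries. Both genotypes are labelled with the strain C57BL/6, and the labels name no other allele or agent and do not say what the mutant Npas3 allele is. Nothing in the labels says that replicates are separate animals, so each p-value reflects the spread between these libraries, which may be partly technical.

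Neurotrophins are small secreted growth factors that are made as longer precursors and cleaved to a mature dimer. Mature BDNF and neurotrophin-4 (the product of Ntf5) bind the receptor tyrosine kinase TrkB, encoded by Ntrk2, and neurotrophin-3 (Ntf3) binds TrkC, encoded by Ntrk3. All of them also bind p75 (Ngfr), a receptor of the tumour necrosis factor receptor family, and the uncleaved precursors bind p75 together with sortilin (Sort1), which also sorts precursor BDNF inside neurons. In cortex this system is known for its part in the survival of young neurons, the growth of dendrites and the maturation of synapses. NPAS3, the product of Npas3, belongs to the bHLH-PAS family of transcription factors and pairs with ARNT proteins, and several dimers of that family, such as those of hypoxia-inducible factors, bind DNA at the core ACGTG.

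The RefSeq promoter windows (GRCm38.p6) run from 250 bases before to 50 bases after an annotated start, and 4 of the 7 genes had at least 1, with 11 windows in all. The Bdnf gene has several starts, each with its own first exon, and it had 7 of these windows. The core ACGTG, on either strand, was found in 2 of the 7 Bdnf windows, in 1 of 2 Ntf3 windows and in the Ngfr window, and not in the Ntrk2 window. Of all 32851 RefSeq windows of 300 bases, 19.6% hold this core. The 4 windows with the core are printed 5′ to 3′ because they belong to Bdnf and Ngfr, the members whose genotypes did not overlap in level, and to the ligand Ntf3, whose genotypes did. Capitals mark ACGTG or its reverse complement, and overlapping matches run together.
Bdnf window 1, chr2:109674450-109674749, plus strand: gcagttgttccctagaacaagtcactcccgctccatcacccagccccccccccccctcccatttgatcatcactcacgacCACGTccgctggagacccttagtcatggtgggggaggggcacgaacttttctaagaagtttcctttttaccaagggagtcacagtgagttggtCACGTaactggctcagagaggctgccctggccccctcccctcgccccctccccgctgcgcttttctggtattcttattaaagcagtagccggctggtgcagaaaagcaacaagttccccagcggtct
Bdnf window 3, chr2:109692186-109692485, plus strand: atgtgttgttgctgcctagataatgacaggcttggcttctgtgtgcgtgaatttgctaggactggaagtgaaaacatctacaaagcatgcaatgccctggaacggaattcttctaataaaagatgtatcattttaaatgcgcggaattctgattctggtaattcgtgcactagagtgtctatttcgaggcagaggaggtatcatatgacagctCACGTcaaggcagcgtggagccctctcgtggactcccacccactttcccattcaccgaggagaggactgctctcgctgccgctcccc
Ngfr window, chr11:95587649-95587948, minus strand: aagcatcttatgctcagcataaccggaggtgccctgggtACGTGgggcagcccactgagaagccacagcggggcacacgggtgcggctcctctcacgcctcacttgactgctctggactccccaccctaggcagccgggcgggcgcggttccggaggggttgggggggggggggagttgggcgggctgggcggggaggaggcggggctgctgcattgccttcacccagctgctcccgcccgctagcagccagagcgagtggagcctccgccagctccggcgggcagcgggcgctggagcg
Ntf3 window 1, chr6:126166695-126166994, minus strand: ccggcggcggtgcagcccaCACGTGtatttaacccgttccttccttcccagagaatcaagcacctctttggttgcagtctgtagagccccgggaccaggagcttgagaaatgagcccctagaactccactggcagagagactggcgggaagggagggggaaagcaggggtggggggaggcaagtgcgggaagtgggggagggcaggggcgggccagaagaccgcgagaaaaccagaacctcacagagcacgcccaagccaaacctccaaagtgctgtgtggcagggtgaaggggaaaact

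In Bdnf window 1 the cores start 170 and 77 bases before the annotated start, and in window 3 of Bdnf, whose start lies 17.7 kb downstream, the core starts 37 bases before it. The Ngfr core starts 211 bases before its start. The Ntf3 core lies in the palindrome CACGTG, which contains ACGTG on both strands and occurs in 7.15% of all windows, while no Bdnf or Ngfr window holds it. The wider E-box pattern CANNTG, which includes that palindrome, was in 6 of 7 Bdnf windows and in 72.3% of all windows. The deposited counts are per gene, so they do not say which Bdnf start was in use, and no binding was measured, so a match describes the letters only.

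Total counts ran from 67378231 to 87811574 per library, and levels below are CPM, counts scaled for library depth with the factors of edgeR. Cortical markers were present in both genotypes, for example the deep-layer transcription factor Tbr1 at 252 to 303 CPM in Npas3+/- and 252 to 278 CPM in WT. Npas3 itself stood at 15, 14.1 and 8.61 CPM in Npas3+/- libraries 1 to 3, against 23.4, 28.4 and 25.7 CPM in WT libraries 1 to 3, with no overlap between the genotypes. Its log2 fold change was -1.04 (SE 0.20), which edgeR's quasi-likelihood test did not place past the threshold (adjusted p = 0.27). DESeq2 called it (adjusted p = 0.000175), also with any 1 library left out. Libraries differed within genotypes: a score of 14 markers of striatal projection neurons, which arise in the tissue below the cortex, was -1.16, -1.23 and 0.53 in Npas3+/- and 1.04, 1.37 and -0.56 in WT. The score overlapped between the genotypes, but 12 of the 14 had negative and 2 positive log2 fold changes (median -1.12). Their summed level was 409 to 624 CPM in Npas3+/- and 397 to 631 CPM in WT, and none of the 14 was at 0 in all libraries. Much of that sum is Meis2, at 243 to 254 CPM in Npas3+/- and 233 to 288 CPM in WT, so it says little about the lower markers. Xist, an RNA made in female cells, stood at 3667 CPM in Npas3+/- library 2, and the next highest was WT library 1 with 2.02 CPM. Npas3+/- library 2 was thus the only one with a female level, so it is not a technical repeat of another. Sex was therefore not balanced between the genotypes. Fits without this library are among those with 1 library left out.

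Divided by the length of their annotated exons, the 7 genes spanned a wide range of levels. In Npas3+/- cortex the order was Sort1 at 31.3 ± 2.2 CPM per kb, Ntrk2 at 23.6 ± 1.65, Ntrk3 at 11.2 ± 1.04, Ntf3 at 6.88 ± 1.38, Ngfr at 5.35 ± 0.821 and Bdnf at 0.144 ± 0.0435 CPM per kb (SD, n = 3). In WT cortex the order was the same, with Sort1 at 29.4 ± 0.698 CPM per kb, followed by Ntrk2 at 25.6 ± 1.54, Ntrk3 at 9.56 ± 0.799, Ntf3 at 6.41 ± 0.921, Ngfr at 3.55 ± 0.576 and Bdnf at 0.35 ± 0.0872 CPM per kb (SD, n = 3). Ntf5 was at or below 0.0724 CPM per kb in every library. Over all 6 libraries Sort1 (28.8 to 32.7 CPM per kb) did not overlap Ntrk2 (22.2 to 26.5), and Ntrk3 (8.64 to 12) lay just above Ntf3 (5.78 to 8.46). Ntf3 and Ngfr (2.89 to 5.97) were neighbours whose ranges overlapped. Exons of all annotated transcripts enter the length, 30.17 kb for Ntrk3 and 19.292 kb for Ntrk2, so a gene with many long alternative exons has a lower value per kb than its main transcript would give.

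**Figure D1:**
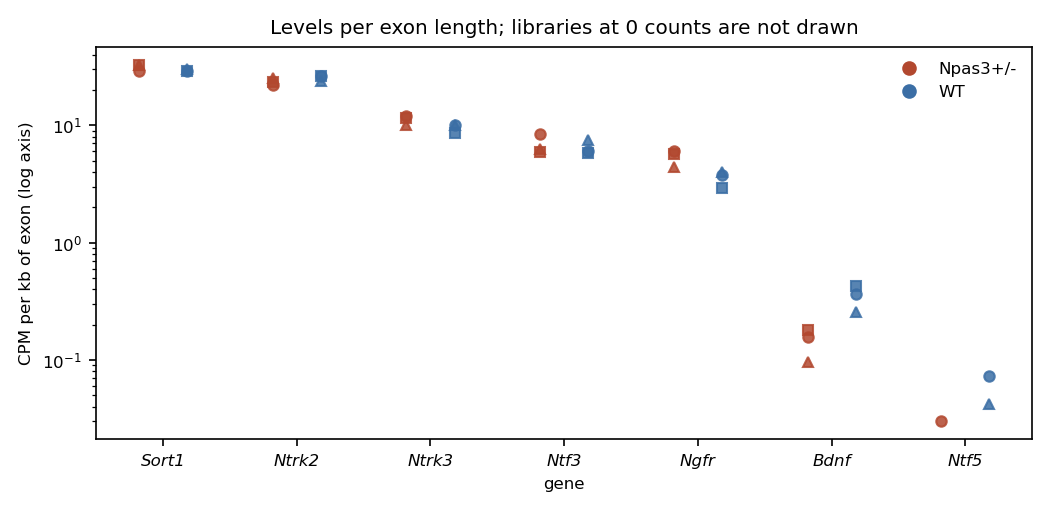
Level of each of the 7 genes per library, in CPM per kb of annotated exon on a log axis, with Npas3+/- libraries left of WT libraries and a marker shape for each replicate number. Both Trk receptors and Sort1 sit above 8 CPM per kb in all libraries, whereas Bdnf stays below 0.43 CPM per kb and the 3 Ntf5 libraries at 0 counts are not drawn.

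Among the ligands, Bdnf was lower in all Npas3+/- libraries than in any WT library and had the largest fold change of the 6 tested members, but missed the threshold over all genes. Bdnf (ENSMUSG00000048482, mm10 chromosome 2, 109674700 to 109727007, plus strand) had 86, 86 and 45 counts in Npas3+/- libraries 1 to 3, against 155, 223 and 114 counts in WT libraries 1 to 3. These correspond to 0.978, 1.12 and 0.596 CPM in Npas3+/- and 2.29, 2.66 and 1.59 CPM in WT. Npas3+/- library 3 was the lowest of all 6 and WT library 2 the highest. The exact Poisson 95% intervals, which cover counting error only, were 0.894 to 1.38 CPM in the highest Npas3+/- library and 1.31 to 1.91 CPM in the lowest WT library. These intervals overlap, but overlap of separate intervals does not show that the values agree within counting error.

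The Bdnf mean was 0.898 ± 0.27 CPM (SD, n = 3) for Npas3+/- and 2.18 ± 0.542 CPM (SD, n = 3) for WT, which puts Npas3+/- at 41.2% of WT. The log2 fold change was -1.28 (SE 0.33, 95% interval -2.04 to -0.52), with an unadjusted p of 0.005 and an adjusted p of 0.276 in edgeR's quasi-likelihood test across all genes. The threshold was an adjusted p of 0.05, which 0.0377% of the 21244 genes tested passed. DESeq2, run as an alternative, gave the same fold change with an adjusted p of 0.0288, and 3.4% of the genes to which it gave an adjusted p passed in it. That DESeq2 call held in 2 of 6 fits that left out 1 library, without Npas3+/- library 2 (adjusted p = 0.0498) and without WT library 3 (0.0126), and was lost in the other 4, with adjusted p of 0.127 without Npas3+/- library 1, 0.0627 without Npas3+/- library 3, 0.107 without WT library 1 and 0.261 without WT library 2. In edgeR the log2 fold change stayed between -1.46 and -1.05 in these fits.

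The antisense gene Gm45346 overlaps 896 bases of Bdnf exons, 14.4% of their length. Whether the counting used strand is not given in the sources used here. Gm45346 had 9, 0 and 0 counts in Npas3+/- and 0, 0 and 2 counts in WT. How reads in the shared bases were counted is not known, so these counts do not show whether the overlap affected Bdnf. With the striatal marker score as a covariate the log2 fold change of Bdnf was -1.31 (edgeR adjusted p = 0.768), close to the value without it. In bulk tissue, fewer cells of a type and less RNA per cell cannot be told apart.

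Ntf3, whose product supports early neurons and is the ligand of TrkC, did not differ beyond the spread. Ntf3 (ENSMUSG00000049107, mm10 chromosome 6, 126101412 to 126166910, minus strand) had 1275, 780 and 811 counts in Npas3+/- and 693, 832 and 918 counts in WT, or 14.5, 10.1 and 10.7 CPM in Npas3+/- and 10.2, 9.91 and 12.8 CPM in WT. The groups overlapped, with Npas3+/- library 1 highest, WT library 3 next and the other 4 libraries between 9.91 and 10.7 CPM. Its log2 fold change was 0.10 (SE 0.17, 95% interval -0.30 to 0.51, edgeR adjusted p = 0.865). Within each library, which needs no scaling between libraries, Bdnf per kb was 0.0186, 0.0304 and 0.0153 of Ntf3 per kb in Npas3+/- and 0.0617, 0.0739 and 0.0342 in WT. The groups did not overlap, and the log2 difference was -1.39. An exact two-sided permutation test gave p = 0.1, the smallest that 3 libraries against 3 allow (0.14 adjusted over 7 ratios between members). Groups without overlap always give this p, so it adds nothing to the ranges.

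Ntf5, the gene of neurotrophin-4, was close to the detection limit. Ntf5 (ENSMUSG00000074121, mm10 chromosome 7, 45413695 to 45417179, plus strand) had 7, 0 and 0 counts in Npas3+/- and 13, 0 and 8 counts in WT. Each genotype held both libraries with counts and libraries without. A count of 0 allows up to 0.039 and 0.0397 CPM in Npas3+/- libraries 2 and 3 and 0.0357 CPM in WT library 2, taking 3 counts as the limit. The filter on low counts removed Ntf5, the only one of the 7 genes it removed, and a difference between genotypes was not detectable at this depth.

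**Figure D2:**
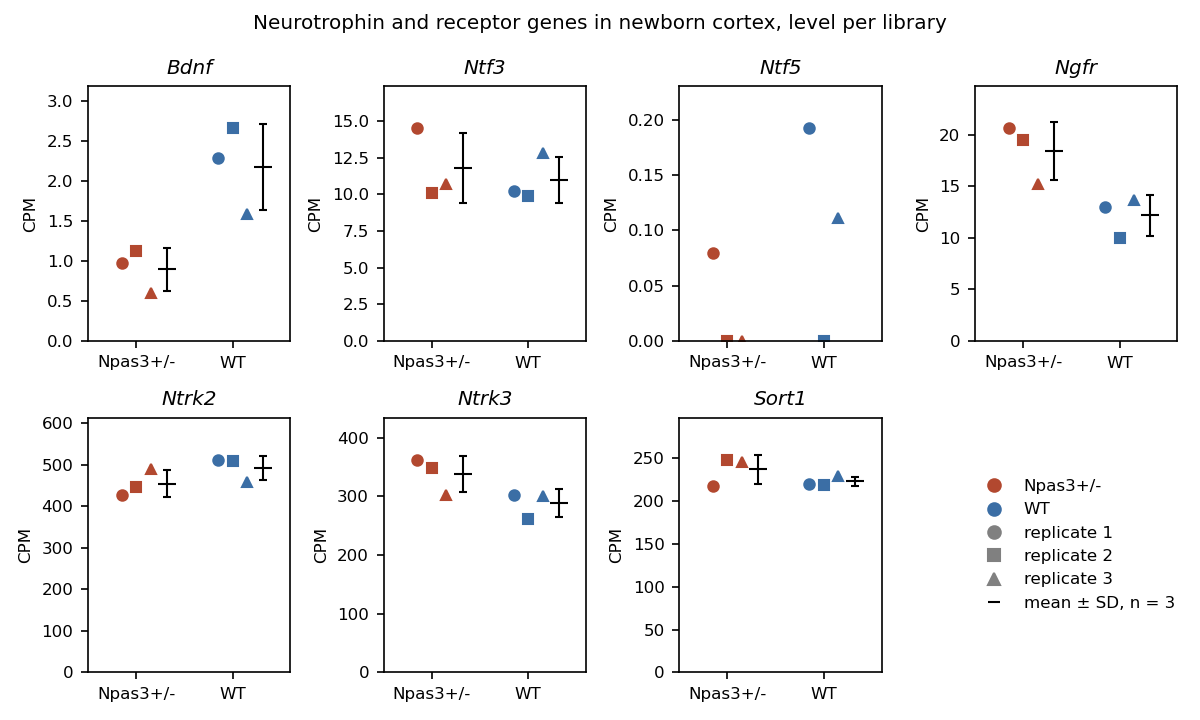
CPM of the 7 genes in each library on linear axes from 0, with Npas3+/- left of WT, 1 point per library and the mean ± SD beside the points (none for Ntf5, which was not tested). Bdnf lies at 1.12 CPM or below in Npas3+/- and at 1.59 CPM or above in WT, and Ngfr at 15.2 CPM or above in Npas3+/- and at 13.7 CPM or below in WT.

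Among the receptors, Ngfr was higher in all Npas3+/- libraries than in any WT library. Ngfr (ENSMUSG00000000120, mm10 chromosome 11, 95568818 to 95587735, minus strand), which encodes p75, had 1807, 1500 and 1149 counts in Npas3+/- and 882, 837 and 982 counts in WT. In CPM the values were 20.6, 19.5 and 15.2 in Npas3+/- and 13, 9.97 and 13.7 in WT. All Npas3+/- libraries lay above all WT libraries, with Npas3+/- library 3 nearest to the WT range and WT library 2 lowest. The means were 18.4 ± 2.83 CPM in Npas3+/- and 12.2 ± 1.99 CPM in WT (SD, n = 3 each), 151% of the WT level. The log2 fold change was 0.59 (SE 0.16, 95% interval 0.21 to 0.97), with an unadjusted p of 0.00761 and an adjusted p of 0.276 in edgeR, so it did not pass over all genes.

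DESeq2 placed Ngfr past the threshold (adjusted p = 0.03). The call held in 2 of 6 fits with 1 library left out, without Npas3+/- library 3 (adjusted p = 0.00291) and without WT library 3 (0.023). It was lost without Npas3+/- library 1 (0.281), Npas3+/- library 2 (0.246), WT library 1 (0.0531) or WT library 2 (0.201). With the striatal marker score as a covariate the log2 fold change of Ngfr was 0.34 (edgeR adjusted p = 0.768). Marker lists of several other cell types were read beside Ngfr. The oligodendrocyte lineage list was the only one of 17 whose score was higher in all Npas3+/- libraries than in any WT library, at 0.05, 0.04 and 0.11 in Npas3+/- and 0.03, -0.12 and -0.12 in WT. Of its 7 genes, 6 had positive and 1 a negative log2 fold change (median 0.11), and their summed level was 297 to 313 CPM in Npas3+/- and 261 to 294 CPM in WT. With 17 lists read, a split as narrow as 0.04 against 0.03 can arise by chance. In the other direction, the astrocyte and radial glia scores were lower in all Npas3+/- libraries than in any WT library. The nearest libraries were at 0.09 against 0.09 for astrocytes, alike at this rounding, and 0.06 against 0.15 for radial glia. Of 7 meningeal fibroblast genes tested, 4 had positive and 3 negative log2 fold changes, and their summed level overlapped at 33.1 to 37.9 CPM in Npas3+/- and 32.1 to 36.7 CPM in WT. All 7 Cajal-Retzius cell markers had negative log2 fold changes (median -0.41), with a summed level of 246 to 283 CPM in Npas3+/- and 293 to 402 CPM in WT. Most of that sum is Reln, at 205 to 235 CPM in Npas3+/- and 245 to 342 CPM in WT, and the score of the list overlapped between the genotypes (-0.50 to -0.04 in Npas3+/- and -0.09 to 0.43 in WT). The summed level of 8 subplate markers was 83.7 to 135 CPM in Npas3+/- and 145 to 163 CPM in WT, but 4 of the 8 had positive and 4 negative log2 fold changes, and 1 of them, Nr4a2, spanned 19 to 65.4 CPM in Npas3+/- and 80.1 to 93.7 CPM in WT. No marker of these lists was at 0 in all libraries, the meningeal genes Aldh1a2 and Slc6a13 were too low to be tested, and the part of these cells in the Ngfr difference was not tested.

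Ntrk2, the most highly counted member, showed a small difference that was within the spread. Ntrk2 (ENSMUSG00000055254, mm10 chromosome 13, 58806569 to 59133970, plus strand) was at 428, 448 and 490 CPM in Npas3+/- and 512, 509 and 459 CPM in WT. The groups overlapped at Npas3+/- library 3 and WT library 3. Its log2 fold change was -0.11 (SE 0.07, 95% interval -0.27 to 0.04, edgeR adjusted p = 0.548) and -0.01 with the striatal score as a covariate. TrkB is made by neurons as a full-length kinase and by astrocytes largely as a truncated form without the kinase, and counts per gene do not separate these forms. The 10 astrocyte markers tested all had negative log2 fold changes (median -0.41), and the summed level of the list was 448 to 594 CPM in Npas3+/- and 615 to 700 CPM in WT. The remaining astrocyte marker, the connexin gene Gjb6, was at 0 in all Npas3+/- libraries and at 0.0476 to 0.0836 CPM in WT. For the 11 radial glia markers, which share 1 gene with the astrocyte list, the summed level was 1260 to 1520 CPM in Npas3+/- and 1680 to 1810 CPM in WT. Their part in the Ntrk2 value was not tested.

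Ntrk3, the TrkC gene, had a small positive log2 fold change. Ntrk3 (ENSMUSG00000059146, mm10 chromosome 7, 78175959 to 78738012, minus strand) was at 362, 349 and 302 CPM in Npas3+/- and 303, 261 and 301 CPM in WT. Npas3+/- libraries 1 and 2 were above all WT libraries, while Npas3+/- library 3 lay among them. The log2 fold change was 0.23 (SE 0.09, 95% interval 0.03 to 0.43) with an unadjusted p of 0.032 and an adjusted p of 0.371 in edgeR, and DESeq2 did not call it either (adjusted p = 0.22). Without Npas3+/- library 3, DESeq2 called it at 0.31 (adjusted p = 0.0306), and with the striatal score as a covariate edgeR gave 0.10 (adjusted p = 0.861).

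Sort1, whose product sortilin is the coreceptor of p75 for precursor neurotrophins, was the steadiest of the tested members. Sort1 (ENSMUSG00000068747, mm10 chromosome 3, 108284082 to 108361511, plus strand) was at 218, 248 and 246 CPM in Npas3+/- and 220, 219 and 229 CPM in WT. Npas3+/- libraries 2 and 3 were above all WT libraries and Npas3+/- library 1 was just below them. The log2 fold change was 0.09 (SE 0.06, 95% interval -0.05 to 0.23, edgeR adjusted p = 0.605). The antisense gene Gm12523 overlaps 4.47% of the Sort1 exon bases. The SD of log2 CPM over the 6 libraries was 0.08 for Sort1 and 0.11 for Ntrk2, against 0.79 for Bdnf and a median of 0.24 over all genes tested.

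Ratios within a library set the receptors against each other. Ngfr per kb was 0.269, 0.244 and 0.174 of Ntrk2 per kb in Npas3+/- and 0.143, 0.11 and 0.167 in WT, a log2 difference of 0.71, and 0.497, 0.489 and 0.441 of Ntrk3 per kb in Npas3+/- and 0.376, 0.335 and 0.397 in WT, a log2 difference of 0.37. Neither pair of groups overlapped, and each reached the smallest p that an exact permutation test of 3 against 3 allows, 0.1 (0.14 adjusted over the 7 ratios). Groups without overlap always give this p, and Ngfr and Bdnf alone already did not overlap, so the ratios are no separate support. Sort1 per kb was 4.83, 5.79 and 7.36 times Ngfr per kb in Npas3+/- and 7.68, 10 and 7.61 times in WT. Bdnf per kb was 0.00709, 0.00775 and 0.00377 of its receptor gene Ntrk2 per kb in Npas3+/- and 0.0139, 0.0162 and 0.0107 in WT, again without overlap (log2 difference -1.18, exact permutation p = 0.1). The ratio of Ntf3 to its receptor gene Ntrk3 overlapped, at 0.706, 0.512 and 0.625 in Npas3+/- and 0.594, 0.669 and 0.747 in WT (exact permutation p = 0.5).

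Of the 6 members tested, 0 passed over all genes in edgeR. At an unadjusted p under 0.05, 2 were higher (Ngfr and Ntrk3), where 6.29% of all genes tested were, and 1 was lower (Bdnf), where 5.84% were. The genotypes did not overlap for 1 member that was higher, where 9.7% of all genes tested behaved so, and for 1 that was lower, where 9.18% did. The median log2 fold change of the 6 was 0.10, beside -0.01 for all genes tested, and 4 of the 6 were positive and 2 negative. Leaving out 1 library gave medians from 0.04 (without Npas3+/- library 1) to 0.17 (without WT library 3), and the striatal covariate gave 0.04.

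**Figure D3:**
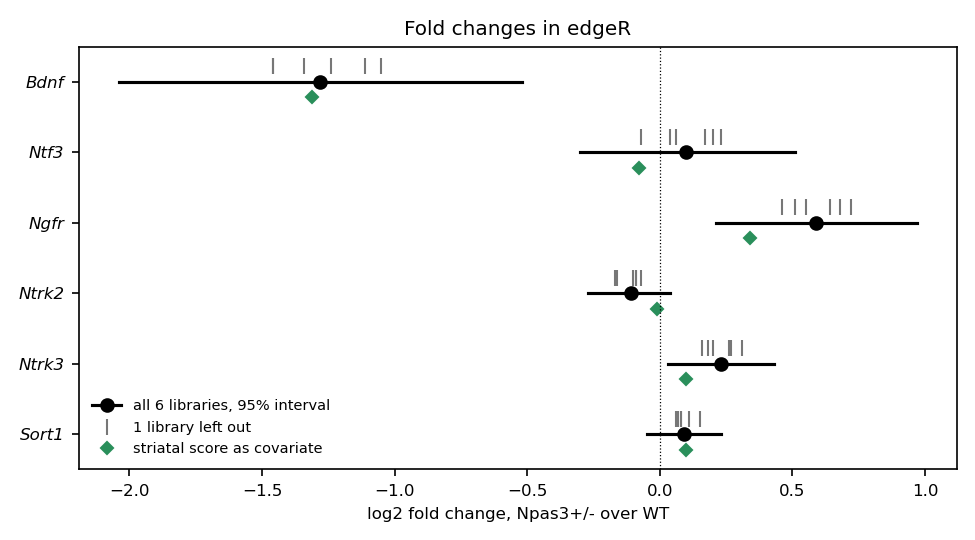
Log2 fold change of Npas3+/- over WT in edgeR for the 6 tested members, with the 95% interval as a line, the values with 1 library left out as ticks and the value with the striatal marker score as a covariate as a diamond. The intervals of Bdnf (-2.04 to -0.52), Ngfr (0.21 to 0.97) and Ntrk3 (0.03 to 0.43) lie to 1 side of 0 before any adjustment for the number of genes tested.

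The library pattern of each member was compared with that of 13153 other named genes with a mean of at least 1 CPM, by the root mean square difference of log2 CPM over the 6 libraries after centring each gene. These nearest profiles are a description: all genes share the same 6 libraries, and with so many genes some lie close to any profile. For Bdnf the closest was Gbp9, an interferon-inducible guanylate-binding protein gene (0.135), whose family members have similar sequences, so its counts are uncertain. The second closest was Npas3 itself (0.243), where the median over all genes compared was 0.741. The genes next in order followed at 0.256, 0.271 and 0.307, so the match is not particular to Npas3. Genes that are lower in Npas3+/-, as Npas3 is, come nearer to Bdnf on this measure than genes without a difference. On this centred log2 scale Npas3+/- library 3 was lowest of all for both, at -1.16 for Bdnf and -1.04 for Npas3, while Npas3+/- libraries 1 and 2 stood at -0.47 and -0.28 for Bdnf and at -0.25 and -0.33 for Npas3. For both genes all Npas3+/- libraries lay below all WT libraries.

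The closest profiles to Ngfr were those of Gipr, the receptor of glucose-dependent insulinotropic peptide (0.083), and Rtn4r (0.088), the Nogo receptor gene, whose product forms a signalling complex with p75. For Ntf3 they were Nrp1, a semaphorin and VEGF coreceptor (0.047), and the potassium channel subunit gene Kcns3 (0.054), and for Ntrk3 the mannose phosphate isomerase gene Mpi (0.033) and the neuronal transcription factor gene Bhlhe22 (0.033). Ntrk2 was closest to the laminin gene Lama1 (0.020) and the mitochondrial enzyme gene Echs1 (0.023), and Sort1 to Ino80e (0.019), which codes for a subunit of a chromatin remodeller and shares 14.4% of its exon bases with Doc2a on the opposite strand, and to the DNA demethylation gene Tet3 (0.021).

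**Figure D4:**
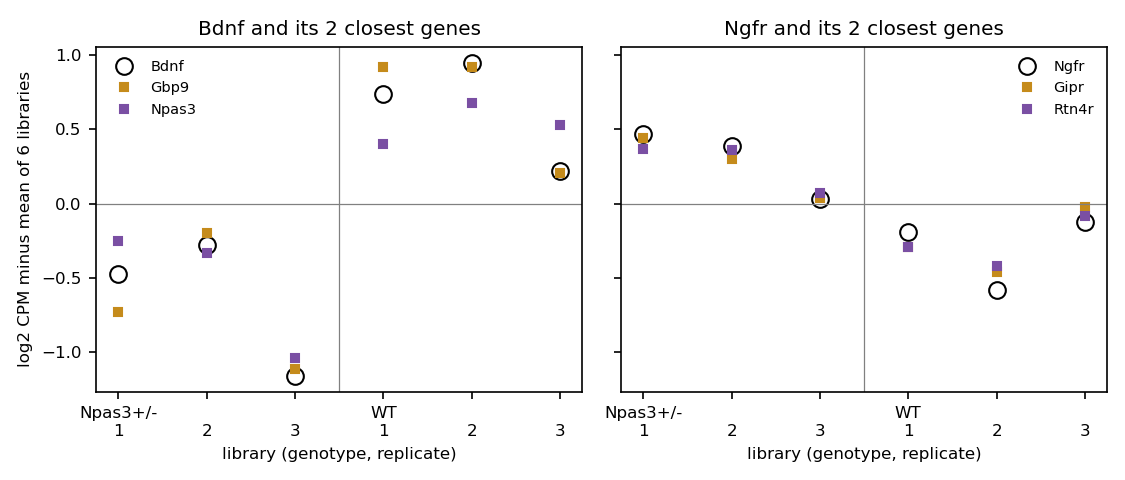
Centred log2 CPM in each library for Bdnf and for Ngfr with the 2 genes closest to each, Npas3+/- libraries left of WT libraries. Bdnf, Gbp9 and Npas3 are all lowest in Npas3+/- library 3, between -1.16 and -1.04, and Ngfr, Gipr and Rtn4r are lowest in WT library 2.

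The rest of the pathway was read through 5 lists, none of which had a gene past the threshold over all genes in edgeR in either direction. DESeq2 calls in these lists stand beside the 3.4% of genes it called over all genes. Apart from Npas3, they were not refitted with 1 library left out. In the list of genes that process neurotrophins or act as coreceptors, 18 of 22 were tested, 8 with positive and 10 with negative log2 fold changes (median -0.04). Of the 18, the genotypes did not overlap for 2 that were higher, beside 9.7% of all genes tested, and 1 that was lower, beside 9.18%. The Nogo receptor gene Rtn4r was at 43.2, 42.7 and 35.0 CPM in Npas3+/- and 27.2, 24.9 and 31.5 CPM in WT, with no overlap and a log2 fold change of 0.53 (SE 0.12, edgeR adjusted p = 0.276). DESeq2 called it (adjusted p = 0.00698) and no other gene of this list. Mmp9, a matrix protease that can cleave precursor BDNF, followed at 0.48 (SE 0.15, edgeR adjusted p = 0.301). In the other direction were Cpe, carboxypeptidase E, which takes part in sorting precursor BDNF (-0.24, SE 0.09, edgeR adjusted p = 0.367), and the sortilin relative Sorcs3 (-0.31, SE 0.16, edgeR adjusted p = 0.473).

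In the list of adaptors that carry signals from Trk receptors and p75, of 36 genes tested, 22 had positive and 14 negative log2 fold changes (median 0.04). The Npas3+/- libraries lay above all WT libraries in 9 of the 36, beside 9.7% of all genes tested, and below all WT libraries in 2 of the 36, beside 9.18%. Shc1, an adaptor that links activated Trk receptors to Ras, was at 8.97, 11.0 and 9.44 CPM in Npas3+/- and 6.34, 6.73 and 6.45 CPM in WT (log2 fold change 0.59, SE 0.13, edgeR adjusted p = 0.27). Sh2b2, an adaptor of receptor tyrosine kinases, was at 52.5, 48.4 and 48.6 CPM in Npas3+/- and 40.1, 35.1 and 39.4 CPM in WT (0.38, SE 0.08, edgeR adjusted p = 0.27). Both were called by DESeq2 (adjusted p = 0.00784 for Shc1 and 0.00581 for Sh2b2), and no other gene of this list was. The endosomal GTPase gene Rab5a (-0.19) and the adaptor gene Sh2b3 (-0.26) had the smallest p in the other direction.

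In the list of MAPK, PI3K and phospholipase C cascade genes, 20 of 37 had positive and 17 negative log2 fold changes (median 0.01). Of the 37, the genotypes did not overlap for 6 that were higher, beside 9.7% of all genes tested, and for 4 that were lower, beside 9.18%. Camk4, a calcium-dependent kinase that activates CREB, was at 116, 122 and 142 CPM in Npas3+/- and 167, 188 and 154 CPM in WT, with no overlap (log2 fold change -0.42, SE 0.10, edgeR adjusted p = 0.276, DESeq2 adjusted p = 0.0147). It was the only gene of this list that DESeq2 called. The kinase gene Prkcd stood at -0.29, the PI3-kinase subunit gene Pik3r2 at 0.17 and the inositol trisphosphate receptor gene Itpr1 at 0.42 on the log2 fold change scale.

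Genes that respond to BDNF or to neuronal activity were evenly divided, with 16 of 32 positive and 16 negative (median -0.01). Of the 32, the genotypes did not overlap for 2 that were higher, beside 9.7% of all genes tested, and for 4 that were lower, beside 9.18%. The lower end held Dusp5, a phosphatase that acts on ERK kinases, at 0.944, 0.676 and 1.67 CPM in Npas3+/- and 2.72, 4.32 and 3.19 CPM in WT (log2 fold change -1.64, SE 0.37, edgeR adjusted p = 0.272). An antisense gene overlaps 22.1% of the exon bases of Dusp5. Klf10, a zinc finger gene induced by growth factors, was at 12.1, 12.8 and 17.2 CPM in Npas3+/- and 19.3, 22.6 and 23.5 CPM in WT (-0.64, SE 0.15, edgeR adjusted p = 0.276). DESeq2 called both (adjusted p = 0.00323 for Dusp5 and 0.00932 for Klf10) and no other gene of this list. The genotypes also did not overlap for the immediate early gene Fosb (-1.54, edgeR adjusted p = 0.386) and the nuclear receptor gene Nr4a2 (-1.31, edgeR adjusted p = 0.322), both added after their values were seen. Fosb was low, at 0.307, 0.13 and 0.159 CPM in Npas3+/- and 1, 0.381 and 0.362 CPM in WT. WT library 1 stood far above the rest, and the other WT libraries lay close to Npas3+/- library 1. DESeq2 did not call Nr4a2 (adjusted p = 0.228) and gave Fosb no adjusted p. The neuronal pentraxin gene Nptx1 (0.36) and the activin subunit gene Inhba (0.37) had the smallest p among those higher. The genotypes did not overlap for Nptx1 and for Per1 (0.16, edgeR adjusted p = 0.42), which was added after its values were seen, but overlapped for Inhba. Npas4, an activity-induced relative of Npas3 known to drive Bdnf transcription in rodent neurons, was added after its values were seen and overlapped, at 4.47, 6.25 and 4.97 CPM in Npas3+/- and 6.44, 6.16 and 3.76 CPM in WT.

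In a list of 32 genes taken as regulators of Bdnf transcription, 19 had positive and 13 negative log2 fold changes (median 0.05). Of the 32, there was no overlap for 6 that were higher, beside 9.7% of all genes tested, and for 3 that were lower, beside 9.18%. Npas3 is counted here among the negative and the non-overlapping lower genes, and whether it regulates Bdnf was not tested. Beside Npas3, which is in this list, the smallest p in the lower direction was that of Rest, a repressor of neuronal genes, at 16.4, 16.4 and 16.3 CPM in Npas3+/- and 17.6, 19.1 and 20.8 CPM in WT (log2 fold change -0.23, SE 0.09, edgeR adjusted p = 0.399). The histone demethylase gene Kdm6b was at 198, 196 and 183 CPM in Npas3+/- and 154, 141 and 165 CPM in WT, with no overlap (0.32, SE 0.07, edgeR adjusted p = 0.27, DESeq2 adjusted p = 0.0147). Beside Npas3, it was the only gene of this list that DESeq2 called. Rcor1, a corepressor that works with REST, stood at 0.37. Creb1, whose product binds the calcium-responsive promoter of Bdnf, was added after its values were seen. It varied within both genotypes, at 21.0, 91.5 and 90.8 CPM in Npas3+/- and 21.0, 72.3 and 94.3 CPM in WT.

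**Figure D5:**
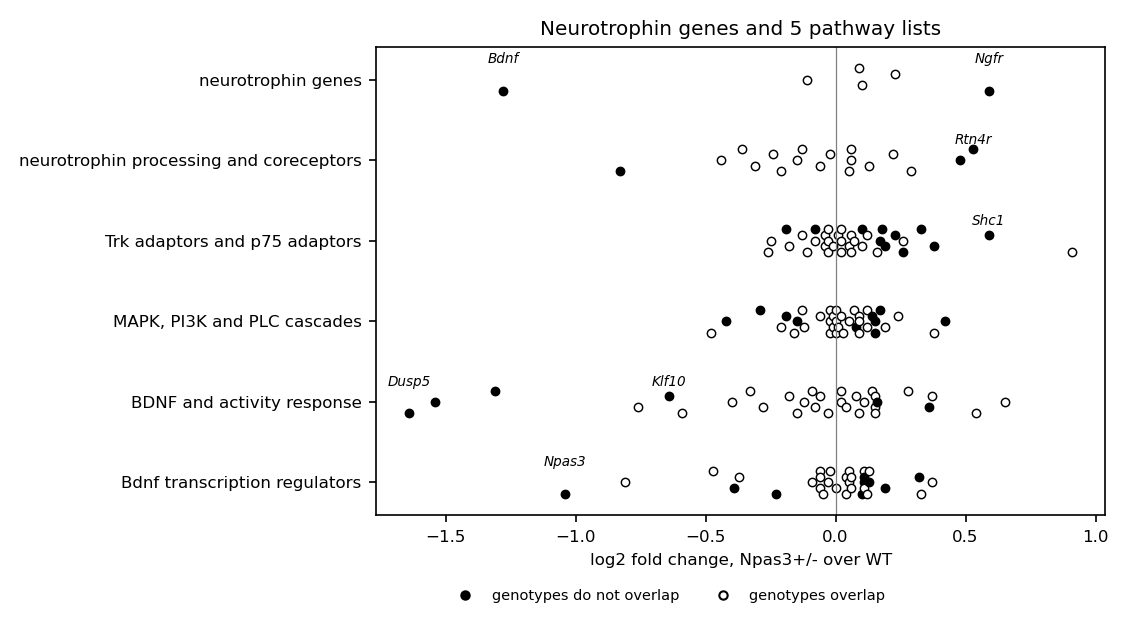
Log2 fold change of Npas3+/- over WT for each tested neurotrophin gene and for the tested genes of 5 pathway lists, filled where the genotypes do not overlap and open where they do, with the genes named by rule labelled past 0.5 in size. Each list is centred near 0, with medians from -0.04 to 0.10.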

How the data were processed

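The authors deposited raw read counts per gene for the 6 libraries, and the tools named in the submitters' processing notes are featureCounts, HISAT2 (2.1.0) and Trimmomatic (0.3.8), with the mm10 build. Strand use, multi-mapped reads and the annotation release are not given in the sources used here. Columns marked NP were taken as Npas3+/-, the only genotype beside WT. Identifiers were matched without version to GENCODE M21 of the same build (53274 of 53379). The members, lists and tests were chosen with earlier results of these data known.

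The deposited counts went unchanged into edgeR (4.0.16, under R 4.3.3: filterByExpr on genotype, 21244 genes, TMM scaling, glmQLFit and glmQLFTest with genotype as the only term). P-values were adjusted across all genes tested by Benjamini-Hochberg, with a threshold of 0.05. Each SE was taken as the size of the log2 fold change over root F. No p-value was computed for a list. A library score averages, over markers, log2 CPM (with a prior of 2 counts) after each gene is centred on its 6 libraries. Library totals were 67378231 to 87811574 counts. Poisson intervals and the limit of 3 counts cover counting error only. The closest pair of libraries had a chi-square of 39.0 per gene, so none repeats another. The steps were tested on simulated data.

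Genes were named by rule (the members, Npas3, the 2 with the smallest p in each direction of each list and the 2 closest profiles of each member), apart from markers, genes that overlap a named one, Xist, and the list genes Fosb, Nr4a2, Per1, Npas4 and Creb1, which were added after their values were seen. The alternatives tried were DESeq2 (1.42.0), limma-voom (limma 3.58.1), upper-quartile or RLE scaling, other low-count filters, a threshold of 0.1, the replicate block, a GC correction (lowess span 0.4), mitochondrial and haemoglobin genes left out, the striatal score as a covariate and each library left out. DESeq2 with each library left out was added after seeing the data.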

Additional observations from a re-analysis of the deposited data

How the results depend on the processing

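Bdnf, Ngfr, Ntrk2, Ntrk3 and Sort1 kept their direction in all 17 alternatives each, from -1.46 to -1.05 for Bdnf, 0.34 to 0.72 for Ngfr, -0.17 to -0.01 for Ntrk2, 0.10 to 0.31 for Ntrk3 and 0.06 to 0.15 for Sort1 (log2 fold change). Past the threshold were Bdnf (-1.28, adjusted p = 0.0288) and Ngfr (0.59, adjusted p = 0.03) in DESeq2 alone, and their adjusted p elsewhere ran up to 0.768. Ntf3 changed sign with the striatal score as a covariate (-0.08) and ran from -0.07 to 0.23 with 1 library left out, negative without Npas3+/- replicate 1. DESeq2 called 511 genes against 8 in edgeR, and edgeR called 11 at an adjusted p under 0.1 and 7 to 16 with 1 library left out (16 without WT replicate 1). DESeq2 called 203 (without WT replicate 2) to 1094 (without Npas3+/- replicate 3). Same-numbered libraries deviated from their group means with correlations of 0.037, -0.03 and -0.088, so the numbers are not taken as pairs. With the replicate block edgeR called 3 genes, and 3 with the GC correction and the block together, and no member passed. The median of the members ran from 0.04 to 0.17 with 1 library left out. The median of the processing and coreceptor list ran from -0.16 (without Npas3+/- replicate 3) to 0.01 (without Npas3+/- replicate 1) with 1 library left out, and was 0.02 with the striatal covariate. That of the adaptor list was 0.06 with the striatal covariate and 0.02 to 0.07 with 1 library left out. The cascade list stood at 0.07 with the GC correction and at 0.07 with the block added. The causes were not tested. Low counts of Bdnf and Ntf5 limit their precision, and with 3 libraries a genotype an exact permutation test cannot go below 0.1.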
